A study of Mus musculus with 10 samples.

Results

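In the cerebellum of 1-year-old mice that lack Snx14, 9 genes that are seldom listed among Purkinje cell markers were at 38.0% to 52.2% of their control level, while Calb1, the classical marker, was at 42.6%. The 9 genes are Stk17b, Nrk, Cep76, Tmem255a, Icmt, Hes3, Garnl3, Plxdc1 and Ptprr, out of 55536 mouse genes counted. They were chosen by their strongly lower counts in Snx14-KO than in control cerebellum, the same values that are described below, so the size of that fall carries no test. Their levels in cortex, their relatives and their neighbours in the genome were not used in the choice, while the difference between the tissues in control mice rests in part on control cerebella that were. Cerebellum and cerebral cortex of 5 mice gave 10 RNA-Seq libraries of bulk tissue. The KO group held 2 mice with a homozygous frameshift deletion in Snx14, made with Cas9 and kept as 1 line. Controls were 3 mice, of which controls 1 and 2 carry the genotype label Het and control 3 the label WT. Every mouse gave both tissues.

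Purkinje cells are the large inhibitory neurons whose axons are the only output of the cerebellar cortex. They hold much calcium-buffering protein, such as the calbindin encoded by Calb1, and their genes of calcium release and glutamate signaling are widely used as markers. The 9 genes come from other fields: protein kinases (Stk17b, Nrk), a centriole protein (Cep76), a prenyl-protein methyltransferase (Icmt), a transcriptional repressor (Hes3), a GTPase regulator (Garnl3), a tyrosine phosphatase (Ptprr) and membrane proteins (Plxdc1, Tmem255a). Hes3 and Ptprr are known to be made in Purkinje cells, and little is known of Tmem255a. In bulk tissue, fewer cells of a type and less RNA per cell cannot be told apart.

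The libraries held 16088310 to 22975355 gene counts. Levels are in CPM (a gene's counts relative to the library total, with totals scaled by TMM factors of all 10 libraries). Snx14 itself was at 42.8, 39.9 and 73.3 CPM in control cerebella 1 to 3 and at 15.5 and 17.4 CPM in KO cerebella, and it fell by 1.66 on the log2 scale (SE 0.256, edgeR adjusted p = 0.014). Its cortex level was 34.4, 35 and 50.9 CPM in controls and 14.8 and 16.1 CPM in KO mice. That cortex difference was -1.36 on the log2 scale (SE 0.192), with an edgeR p of 0.000132 before and 0.754 after adjustment, and it did not pass. The difference of the KO effect between the tissues was -0.28 (SE 0.365, edgeR adjusted p = 0.934). The 16 Purkinje cell markers summed to 10311 to 12306 CPM in control and 5449 to 5650 CPM in KO cerebella, with 13 of 16 called lower and none of them at 0. Granule cell markers summed to 4496 to 5288 and 4500 to 5206 CPM, with 0 of 8 called, and in cortex to at most 125 CPM. Of 7 markers of astrocytes and Bergmann glia, 3 were called higher (Gfap, Gja1 and Aqp4) and 1 lower (Hopx), and their sum was 2534 to 2728 CPM in control and 2789 to 2976 CPM in KO cerebella. Of the remaining lists none had a called gene, but several varied between libraries. Choroid plexus markers summed to 60.1 CPM in KO 1 and to 1195 to 3381 CPM in the other cerebella. Striatal neuron markers summed to 3077 CPM in control 2, to 1183 and 1321 CPM in the other control cortices and to 363 and 737 CPM in the KO cortices. Oligodendrocyte markers summed to 4821 CPM in cortex of control 2 and to 2613 to 2758 CPM in the other cortices. Endothelial markers summed to 126 CPM in cortex of control 1, to 69.8 and 57.4 CPM in the other control cortices and to 127 and 119 CPM in the KO cortices. What part these differences have in the values of the 9 genes was not tested.

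In KO cerebellum the median log2 change of the 9 genes was -1.17, and over all 19447 genes tested it was 0.00. All 9 are among the 202 genes called lower (1.04% of the genes tested) at an adjusted p under 0.05 and an absolute log2 change over 0.5, which the choice of genes fixes. Both KO libraries were below all 3 controls for each of them, again fixed by the choice, and for 14.6% of all genes tested. Ordered by the size of the fall, they stood between places 15 (Nrk) and 84 (Plxdc1) of those 202, and Calb1 stood at place 33. Nrk had a larger log2 fall than Calb1 (-1.24) in all 10 alternatives, and 6 genes had a smaller one in all of them. Stk17b (-1.26), Icmt (-1.22), Hes3 (-1.19) and Cep76 (-1.17) were within 1 SE of Calb1. The order of Stk17b and Icmt with Calb1 turned in some alternatives (for Stk17b without KO 1 or control 2, for Icmt without control 3 or with the replicate block). These differences were not tested. The following accounts go from the enzymes of signaling to the nuclear, centriolar and membrane proteins.

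**Figure D1:**
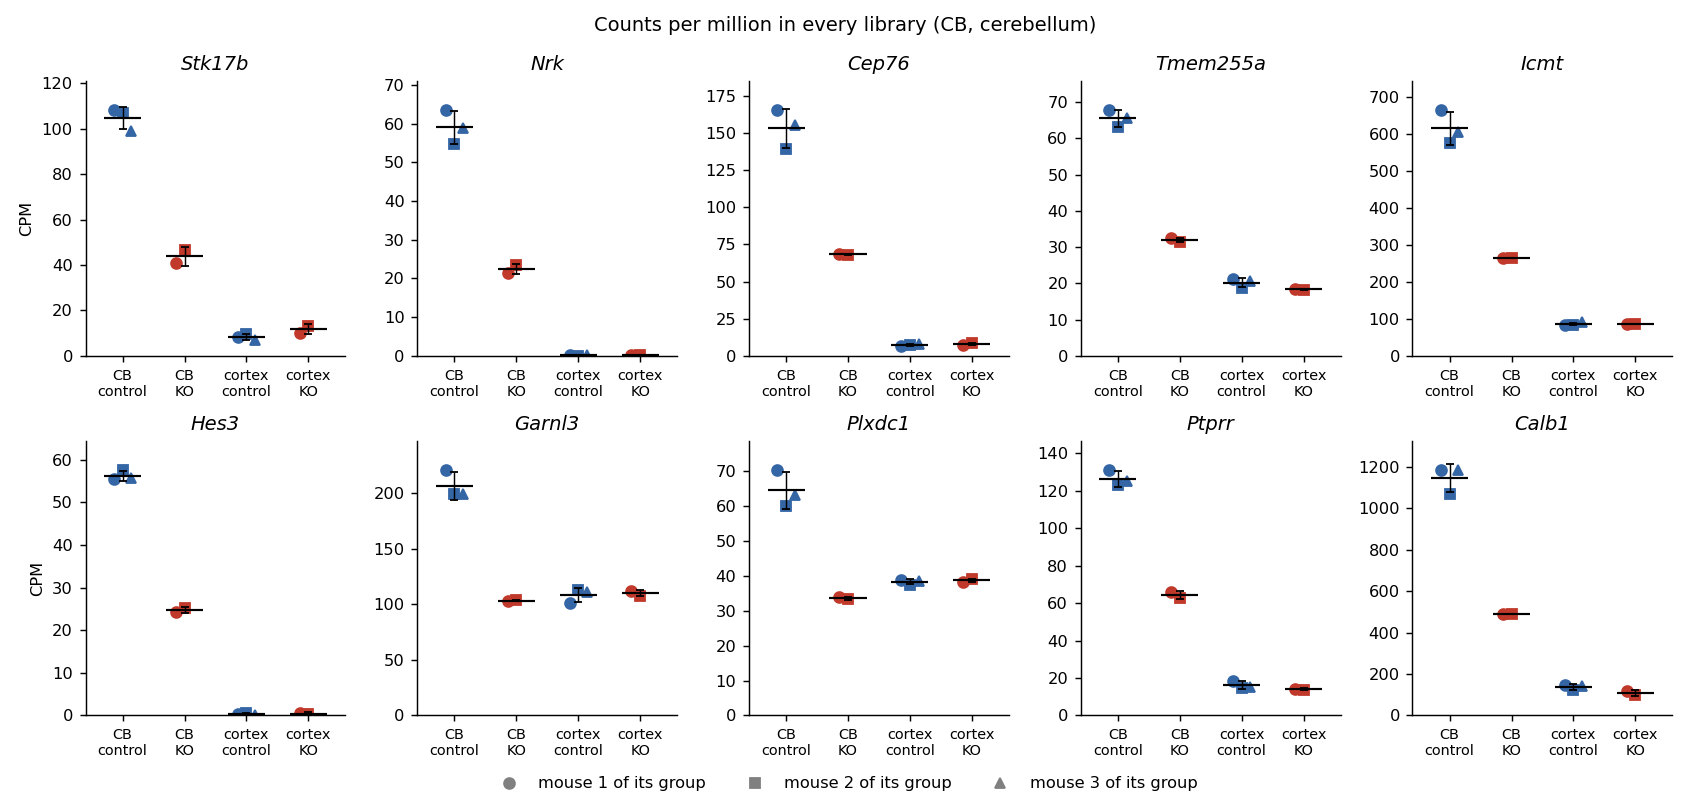
Level of the 9 genes and Calb1 in CPM (linear axes from 0) in every library of control (blue) and KO (red) cerebellum and cortex; bars are the mean ± SD, and marker shapes give the mouse number within its group. Both KO cerebella sit below all 3 control cerebella in each panel, while Garnl3 and Plxdc1 keep cortex levels close to those of KO cerebellum and Nrk and Hes3 are near 0 in cortex.

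Stk17b (ENSMUSG00000026094.14, chromosome 1, 53755506 to 53785224, minus strand, GRCm38) encodes a serine/threonine kinase of the death-associated protein kinase group, best known in lymphocytes. It was at 108, 107 and 99 CPM in control cerebella and at 40.9 and 46.6 CPM in KO cerebella. The groups were far apart, and the KO mice kept 41.9% ± 3.86 (SD, n = 2) of the control mean, a log2 change of -1.26 (SE 0.0808). The SD of this share, here and for the genes below, is that of the 2 KO libraries. It leaves out the spread of the controls, which the SE of the log2 change includes. In cortex Stk17b was at 8.21, 9.53 and 6.88 CPM in controls and at 10.2 and 13.3 CPM in KO mice. Here the order was the opposite, with both KO libraries above all 3 controls, as for 10.5% of the genes tested in cortex. The cortex log2 change of 0.53 (SE 0.195, 95% interval 0.07 to 0.98) had an unadjusted edgeR p of 0.0279 and an adjusted p of 0.796, and it did not pass.

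Nrk (ENSMUSG00000052854.15, X chromosome, 138914430 to 139010532, plus strand) encodes a kinase of the germinal center kinase group IV that is best known in the placenta. Control cerebella held 63.4, 54.8 and 59 CPM and KO cerebella 21.5 and 23.4 CPM. This was the largest relative fall of the 9, to 38.0% ± 2.19 (SD, n = 2) of the control mean, a log2 change of -1.40 (SE 0.0934). Cortex libraries held 3, 1 and 2 counts in controls and 3 and 3 counts in KO mice, too few for the gene to enter the test there. Pooled over the control mice, the 3702 cerebellum counts and 6 cortex counts give a cerebellum to cortex ratio of 519, with an exact 95% interval of 238 to 1415 that covers counting error only.

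Ptprr (ENSMUSG00000020151.16, chromosome 10, 116018213 to 116274932, plus strand) encodes a receptor-type tyrosine phosphatase that binds and dephosphorylates ERK kinases through a kinase interaction motif. Levels were 131, 123 and 125 CPM in control and 66 and 62.8 CPM in KO cerebella. The KO mice kept 51.0% ± 1.80 (SD, n = 2), a log2 change of -0.98 (SE 0.0628), with little spread in either group. In cortex it was at 18.5, 14.8 and 15 CPM in controls and at 14.3 and 13.6 CPM in KO mice. Both KO cortices lay below all controls, as for 14.2% of the genes tested, and the log2 change of -0.19 (95% interval -0.54 to 0.17, edgeR adjusted p = 0.895) did not pass.

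Icmt (ENSMUSG00000039662.16, chromosome 4, 152297227 to 152307121, plus strand) encodes the endoplasmic reticulum methyltransferase that caps prenylated CAAX proteins. It was the most abundant of the 9 genes, at 664, 577 and 605 CPM in control cerebella and at 266 CPM in each KO cerebellum. KO cerebella kept 43.2% ± 0.0928 (SD, n = 2), a log2 change of -1.22 (SE 0.0865). Cortex levels were 84.4, 83.8 and 90.9 CPM in controls and 87.4 and 86.8 CPM in KO mice. The cortex groups overlapped, with a log2 change of 0.03 and a 95% interval of -0.17 to 0.22, the narrowest of the 7 genes with enough counts for one (edgeR adjusted p = 0.966).

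Garnl3 (ENSMUSG00000038860.15, chromosome 2, 32986224 to 33131654, minus strand) encodes a protein with a GTPase-activating domain of the Rap type. It was at 221, 199 and 199 CPM in control cerebella and at 103 and 104 CPM in KO cerebella, so KO mice kept 50.1% ± 0.263 (SD, n = 2; log2 change -1.01, SE 0.0705). Control cortices held 101, 113 and 111 CPM and KO cortices 112 and 108 CPM. KO cerebella thus lay at the level of cortex, while control cerebella stood well above it. The cortex log2 change was 0.04 (95% interval -0.17 to 0.25, edgeR adjusted p = 0.963).

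Hes3 (ENSMUSG00000028946.7, chromosome 4, 152285972 to 152291662, minus strand) encodes a basic helix-loop-helix repressor of the Hes family, many members of which act downstream of Notch. Control cerebella held 55.4, 57.6 and 55.8 CPM and KO cerebella 24.3 and 25.2 CPM. KO mice kept 44.1% ± 1.13 (SD, n = 2), a log2 change of -1.19 (SE 0.0768). Cortex gave only 6, 13 and 2 counts in controls and 12 and 4 in KO mice, so no change in either direction was detectable there (log2 change 0.27, SE 0.73, edgeR adjusted p = 0.965). Control mice had 141 times as many Hes3 counts in cerebellum as in cortex after scaling (exact 95% interval 92.2 to 228, counting error only).

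Cep76 (ENSMUSG00000073542.3, chromosome 18, 67617800 to 67641336, minus strand) encodes a centriolar protein that limits centriole duplication in dividing cells. Its control cerebella were at 165, 139 and 155 CPM and its KO cerebella at 68.6 and 68.1 CPM. The KO mice kept 44.7% ± 0.187 (SD, n = 2), a log2 change of -1.17 (SE 0.0809). In cortex the gene was at 6.89, 7.15 and 7.86 CPM in controls and at 7.63 and 8.75 CPM in KO mice. Those groups overlapped, and the log2 change was 0.18 (95% interval -0.19 to 0.55, edgeR adjusted p = 0.9).

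Tmem255a (ENSMUSG00000036502.14, X chromosome, 38196573 to 38252439, minus strand) encodes a multi-pass transmembrane protein. It was at 67.7, 63.2 and 65.6 CPM in control and at 32.4 and 31.5 CPM in KO cerebella, and KO mice kept 48.7% ± 0.939 (SD, n = 2; log2 change -1.04, SE 0.0716). Control cortices held 21.2, 18.8 and 20.7 CPM and KO cortices 18.4 and 18.3 CPM. Both KO cortices were below all controls by a small margin, as for 14.2% of the genes tested. The log2 change of -0.12 (95% interval -0.41 to 0.16, edgeR adjusted p = 0.911) did not pass.

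Plxdc1 (ENSMUSG00000017417.14, chromosome 11, 97923238 to 97986444, minus strand) encodes a plexin-domain membrane protein first known from tumor endothelium and described as a receptor for the factor encoded by Serpinf1. Control cerebella were at 70.2, 59.9 and 63 CPM and KO cerebella at 33.9 and 33.3 CPM. The fall was the smallest of the 9, to 52.2% ± 0.596 (SD, n = 2), a log2 change of -0.94 (SE 0.086). Cortex levels were nearly even, at 38.7, 37.4 and 38.5 CPM in controls and 38.3 and 39 CPM in KO mice. The log2 change was 0.03 (95% interval -0.18 to 0.24, edgeR adjusted p = 0.966), and KO cerebella held less Plxdc1 than any cortex library.

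Calb1 (ENSMUSG00000028222.2, chromosome 4, 15881264 to 15908064, plus strand) went from 1185, 1070 and 1184 CPM in control cerebella to 488 and 489 CPM in KO cerebella, a log2 change of -1.24 (SE 0.0904). In cortex it was at 149, 122 and 144 CPM in controls and at 119 and 99.4 CPM in KO mice. Both KO cortices were below all controls, as for 14.2% of the genes tested. The log2 change was -0.33 (95% interval -0.62 to -0.04), with an edgeR adjusted p of 0.797. Its cortex estimate was thus lower than that of any of the 8 genes tested there, a difference that was not tested.

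In cortex, 0 of the 8 genes tested were called, and neither was any of the 19202 genes tested (0% called by edgeR; 1139 genes, or 5.93%, had an unadjusted p under 0.05, and DESeq2 called 49 genes). Among the 8, Stk17b alone had an unadjusted p under 0.05, and DESeq2 called 0 of them. Their median log2 change was 0.03 (range -0.19 to 0.53), against 0.00 over all genes. KO libraries lay above all controls for 1 of the 8 (10.5% of all genes tested in cortex), below them for 2 (14.2%) and overlapped for 5. With 8 genes, nothing is read from these counts. For the 7 of them with more than a few cortex counts per library, the lowest bound of a 95% interval was -0.54 (Ptprr) and the highest 0.98 (Stk17b).

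**Figure D2:**
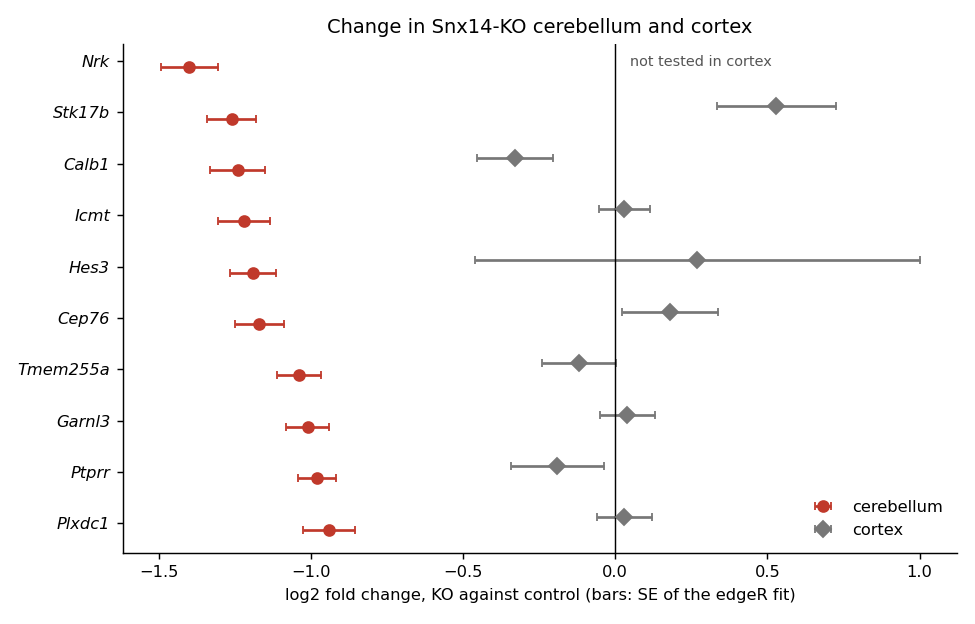
Log2 fold change of KO against control in cerebellum (red circles) and cortex (gray diamonds) for the 9 genes and Calb1, with the SE of the edgeR fit as bars. Cerebellum values run from -1.40 to -0.94 and cortex values from -0.33 to 0.53, and Hes3 has the widest cortex bar.

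Against cortex, the control cerebellum held more of each of the 9 genes, and 9 of 9 were called higher, as were 3700 of 19416 genes (19.1%). The control cerebella also entered the choice of the genes, so nothing is read from that count. Nrk and Hes3, near 0 in cortex, were followed by Cep76, with a log2 difference of 4.38 (SE 0.105), and Stk17b, with 3.66 (SE 0.12). Ptprr and Icmt differed by 2.97 (SE 0.103) and 2.83 (SE 0.0924), close to the 3.05 (SE 0.111) of Calb1. Tmem255a stood at 1.69 (SE 0.0844). Garnl3 and Plxdc1 differed least, by 0.93 (SE 0.0825) and 0.75 (SE 0.0842). The 2 genes with the smallest difference between tissues were thus also among the 3 with the smallest fall in KO cerebellum, which is given as a description of 9 genes that share their libraries.

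To compare levels between genes, CPM were divided by the length of all annotated exons of the gene in kb. In control cerebellum Calb1 was at 237 ± 13.6 CPM per kb (SD, n = 3), and of the 9 genes Icmt was highest at 116 ± 8.33. Cep76 (40.4 ± 3.46), Hes3 (28.7 ± 0.6), Ptprr (21.3 ± 0.764), Stk17b (20.1 ± 0.919), Garnl3 (16.7 ± 1.06), Tmem255a (14.6 ± 0.504), Plxdc1 (13.3 ± 1.1) and Nrk (6.42 ± 0.47) followed. The libraries of Ptprr and Stk17b overlapped, as did those of Tmem255a and Plxdc1, and every other gene in this order was separated from the next. The order in control cortex was another one, led by Icmt (16.3 ± 0.739), Garnl3 (8.76 ± 0.524) and Plxdc1 (7.89 ± 0.139), with Cep76 and Stk17b overlapping each other near the bottom and Hes3 (0.194 ± 0.137) and Nrk (0.0128 ± 0.00703) last. In KO cerebellum the order of the means was that of control cerebellum, and Stk17b and Garnl3 overlapped at 8.43 ± 0.777 and 8.36 ± 0.0439 CPM per kb (SD, n = 2).

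As a check on scaling, the counts of each gene were set against those of Calb1 in the same library, a ratio in which library size cancels. It is not corrected for gene length and serves only to compare libraries. Icmt was at 56, 53.9 and 51.1% of the Calb1 count in control cerebella and at 54.6 and 54.3% in KO cerebella. Stk17b (9.09, 9.96 and 8.36%, then 8.37 and 9.52%) and Hes3 (4.67, 5.38 and 4.71%, then 4.99 and 5.16%) likewise overlapped between the groups. Plxdc1 was at 5.92, 5.6 and 5.32% of the Calb1 count in controls and at 6.94 and 6.82% in KO mice. KO libraries lay above all controls for Cep76, Tmem255a, Garnl3, Plxdc1 and Ptprr, by 0.07 to 0.29 on the log2 scale, and below them for Nrk, by -0.17. The choice of reference moved these values. With the summed counts of the 15 other Purkinje cell markers, KO libraries lay above all controls for Plxdc1 and below them for Nrk, Cep76 and Icmt. The other genes overlapped. Nrk and Plxdc1 kept their side with either reference, at the ends of the range. Since Calb1 itself fell, any gene that fell less rises in the ratio to it. The share of all genes with such a separation was not counted, and the choice of genes used the same counts. Nothing is thus read from how many of the 9 genes were separated.

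**Figure D3:**
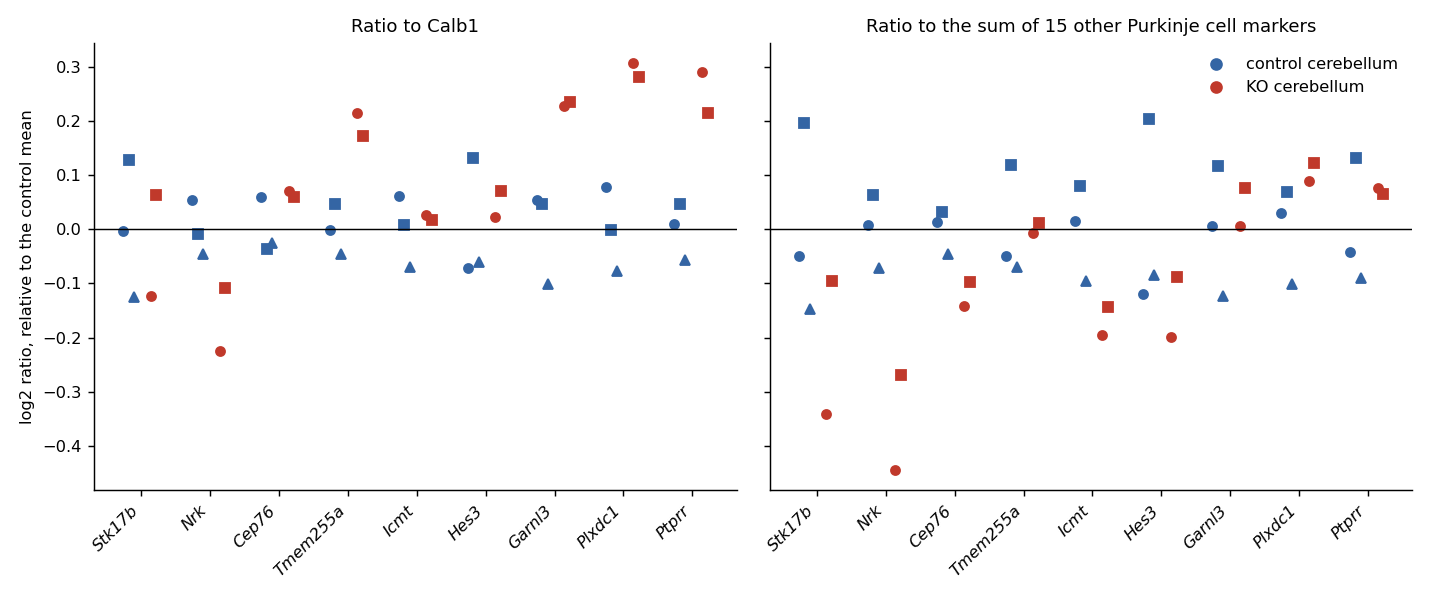
Log2 ratio of each gene's count to that of Calb1 (left) and to the summed count of 15 other Purkinje cell markers (right) in control (blue) and KO (red) cerebella, each relative to the mean of the 3 controls. Values for Nrk lie lowest and those for Plxdc1 among the highest of the KO libraries in both panels, and most other genes change place between the panels.

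Relatives of the 9 genes were examined in 9 lists of 82 genes, which hold paralogs and partners in the same pathway. Of the 80 tested in cerebellum, 1 was called higher and 1 lower (2.5%, against 1.55% of all genes, of which 0.514% were higher), with a median log2 change of 0.01. In cortex 0 of 81 were called. Among the closest relatives, log2 changes were 0.02 to 0.38 for Dapk1, Dapk2 and Dapk3 and -0.19 to 0.18 for the Nrk relatives Map4k4, Mink1 and Tnik. Plxdc2 was at -0.27 and Tmem255b at -0.15. Serpinf1, which encodes the factor named above for Plxdc1 and is no paralog of it, was at 0.68. The smallest edgeR adjusted p of all these genes was 0.224, for Map4k4.

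For Hes3, 7 of 8 Hes and Hey repressors could be tested, and none was called. Hey1 had the smallest p (log2 change 0.28, edgeR adjusted p = 0.233), followed by Hes1 (-0.39, adjusted p = 0.692). Of 13 Notch pathway genes, Dner, which encodes a neuronal transmembrane ligand of Notch, was called. It was at 619, 500 and 609 CPM in control cerebella and at 322 and 347 CPM in KO cerebella, and it fell by 0.79 on the log2 scale (SE 0.108, edgeR adjusted p = 0.0089). Without KO 1, control 1 or control 3 the adjusted p was 0.0694, 0.0551 and 0.052. The 16 Purkinje cell markers fell in the same libraries, with a median log2 change of -0.96. What part such cells have in the value of Dner was not tested. In cortex Dner had 139, 91.8 and 118 CPM in controls and 121 and 113 CPM in KO mice, with a log2 change of 0.02. The difference between the tissues had an edgeR adjusted p of 0.267, and of 0.0212 with the mouse as a block, a fit that called 128 genes where the fit without it called 21 of 20614 (0.102%). The other 12 genes of the list, Notch1 (0.30, adjusted p = 0.276) and Dll1 (0.40, adjusted p = 0.319) among them, did not pass. Of the 13, 10 had values above 0, as had 9768 of all 19447 genes tested, and nothing is read from that count.

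Prenyl-protein enzymes and chaperones around Icmt gave 0 calls among 11 genes. Their median log2 change was -0.11, with 9 of 11 below 0. Over all genes tested the median was 0.00, with 9679 of 19447 below 0, and nothing is read from the count of 11. Chm (-0.24, edgeR adjusted p = 0.222) and Chml (-0.48, adjusted p = 0.28), which escort Rab proteins to prenylation, had the smallest p-values, while Rce1 and Zmpste24, the proteases that act just before Icmt, were at -0.04 and 0.01. They were named after their values were seen.

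Of 17 Rap GTPases and their regulators, set beside Garnl3, Rapgef3 was called higher. It encodes a Rap exchange factor that is activated by cAMP, and it rose from 19.2, 19.6 and 19.7 CPM in control to 33.6 and 34.3 CPM in KO cerebella (log2 change 0.79, SE 0.0856, edgeR adjusted p = 0.00347). Its adjusted p stayed at or below 0.0357 in all 10 alternatives. Sipa1 (0.50, adjusted p = 0.222) and Rap2b (0.39, adjusted p = 0.206) did not pass. The astrocyte genes Gfap, Gja1 and Aqp4 rose in the same libraries, by 1.30, 0.78 and 0.69 on the log2 scale. Of the other 4 genes of that list, Hopx fell by 0.60, and Aldh1l1 (0.32), Slc1a3 (-0.43) and Gdf10 (-0.38) were not called. What part such cells have in the value of Rapgef3 was not tested.

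Around Ptprr, 0 of 11 tested phosphatases and kinases of the ERK cascade were called, with values from -0.14 to 0.22. Map2k2 (0.21, edgeR adjusted p = 0.25) and Map2k1 (-0.14, adjusted p = 0.325), which encode the kinases that activate ERK, had the smallest p-values. Around Cep76, 0 of 12 centriole duplication genes were called. Stil was nearest, at 7.1, 5.51 and 4.68 CPM in control and 3.79 and 3.07 CPM in KO cerebella (log2 change -0.76, SE 0.226, edgeR adjusted p = 0.168), and Cep97 followed at 0.23 (adjusted p = 0.47).

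**Figure D4:**
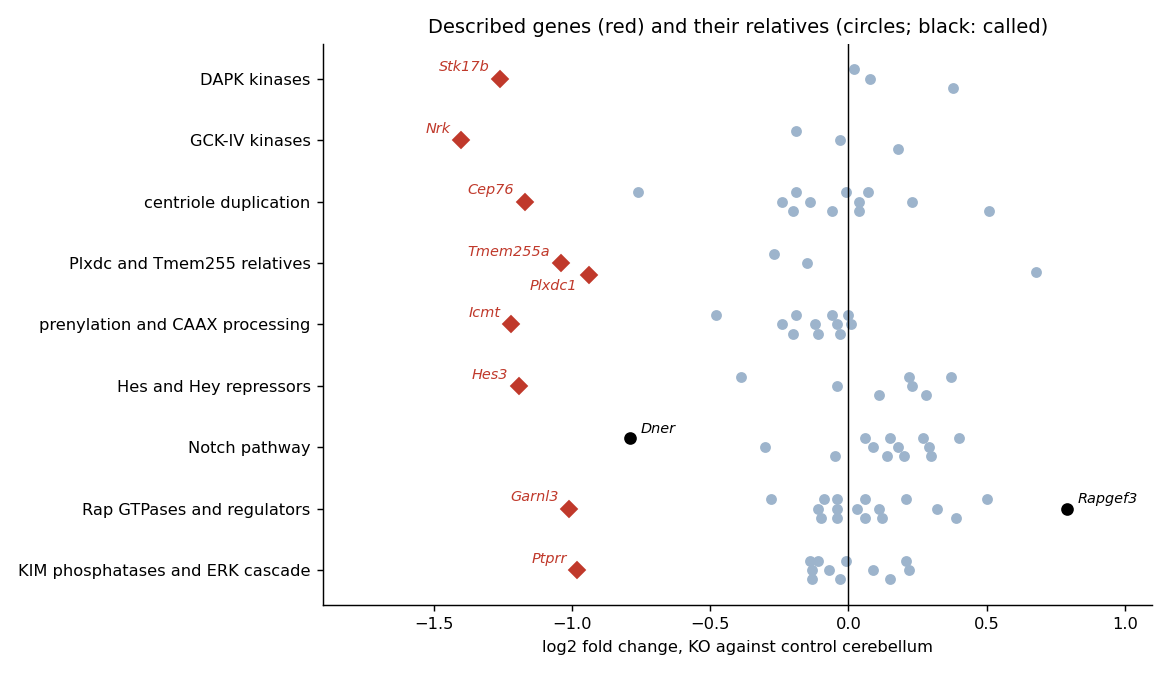
Log2 fold change in KO cerebellum of the tested genes of 9 lists (circles; black where called) and of the 9 described genes beside their list (red diamonds); points are offset vertically for legibility. Relatives spread around 0, with Dner at -0.79 and Rapgef3 at 0.79 the only called ones. The red diamonds lie between -1.40 and -0.94, and their low place is fixed by the choice of these genes.

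Hes3 and Icmt lie on chromosome 4 with their starts facing each other across 5564 bases, Hes3 on the minus and Icmt on the plus strand. They share no exonic base. Both fell by a similar size in KO cerebellum, and Hes3 counts were 8.34, 9.97 and 9.22% of Icmt counts in control cerebella and 9.14 and 9.5% in KO cerebella. The 2 groups overlapped. In cortex the same ratio was between 0.135 and 0.786% in the 5 libraries, so the pair did not keep 1 ratio between the tissues. Among the genes nearby, Gpr153, which ends 634 bases from Hes3, was at -0.27 (edgeR adjusted p = 0.281), and Rpl22, 18620 bases past Icmt, was at 0.00 (adjusted p = 0.99).

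Rnf207 overlaps the end of Icmt on the other strand, with 103 exonic bases in common. It was at 10.2, 9.53 and 9.26 CPM in control cerebella and at 4.06 and 5.22 CPM in KO cerebella, a called fall of 1.06 on the log2 scale (SE 0.167, edgeR adjusted p = 0.0157). The call was lost without control 1 (adjusted p = 0.104), control 3 (0.0676) or KO 1 (0.0898). In cortex the log2 change was -0.27 (adjusted p = 0.886). A read pair in the shared bases was counted for both genes and strand was not used, so pairs from Icmt, which has far more counts, can enter the Rnf207 count, and how many do was not tested. The shared bases are 1.95% of the Icmt exons and 1.63% of the Rnf207 exons.

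**Figure D5:**
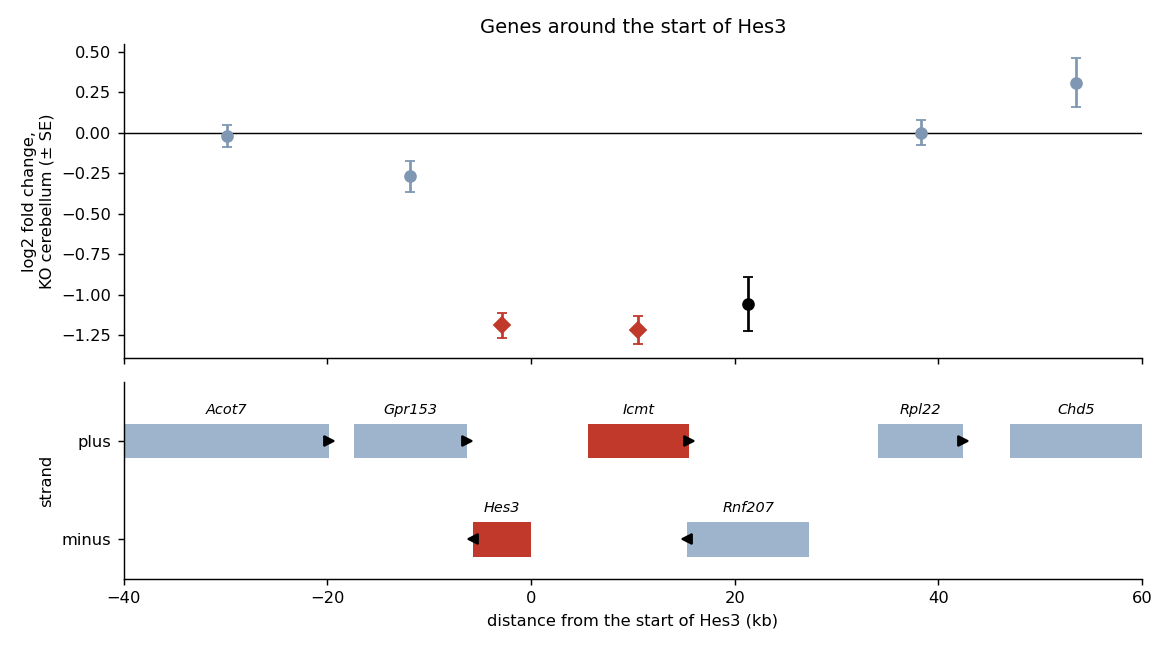
Log2 fold change in KO cerebellum (top, ± SE of the edgeR fit) of the tested genes around Hes3 and Icmt, and their extent by strand (bottom), against the distance in kb from the start of Hes3; arrows point along transcription, and Acot7 and Chd5 run past the frame. Hes3 (-1.19), Icmt (-1.22) and Rnf207 (-1.06, black) are low, and Gpr153 (-0.27) and Rpl22 (0.00) on either side are not called.

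Overlap touched 2 further genes. Tmem255a shares 474 bases, or 10.6% of its exons, with Zbtb33, which was at 32.6 ± 1.05 CPM (SD, n = 3) in control and 32.3 ± 0.322 CPM (SD, n = 2) in KO cerebella (log2 change -0.02, edgeR adjusted p = 0.943). Ptprr shares 650 bases (11% of its exons) with 4933416C03Rik, a gene at 0.111 CPM in control cerebella that was too low to test. The other 6 genes share no exonic base with another gene. Including the nearest tested gene on each side, 18 distinct neighbors were tested, and their median log2 change was -0.02. Only Rnf207 was called (1 lower and 0 higher), and pairs from Icmt can enter its count. Over all genes tested, 1.55% were called and 1.04% were called lower, and nothing is read from 1 call. Cep76 and its divergent neighbor Psmg2, whose gene bodies are 262 bases apart, differed in value, with -0.33 for Psmg2 (adjusted p = 0.268). Ptprb, 590 bases past Ptprr, was at -0.03 (adjusted p = 0.945), and Ralgps1, 1762 bases from Garnl3, at 0.05 (adjusted p = 0.864).

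As a description, promoter windows of 250 bases before the start were read from RefSeq (GRCm38.p6) for the 6 genes listed there. These were Stk17b, Nrk, Tmem255a, Icmt, Garnl3 and Ptprr, in 10 windows. That the 9 genes fell together is fixed by their choice, and a shared cause was not tested. Ptprr and Garnl3 have more than 1 window each, and some windows of Ptprr overlap. Several windows, such as that of Icmt, lie inside the gene as annotated in the count tables. Windows of Hes3, Cep76, Plxdc1 and Calb1 were not analysed here. Windows ranged from 38.0 to 77.2% G and C, with a median of 52.4% over all 32841 windows. The GC box (GGGCGG on either strand, overlapping matches counted) was in 5 of 10 windows, against 32.7% of all windows. AGGTCA, the half-site of nuclear receptors such as that encoded by Rora, was in 0 of 10 windows (14% of all), and TATAAA in 0 of 10 (12.4% of all). The E-box CANNTG, which many helix-loop-helix factors bind, was in 5 of 10 (66.2% of all), and the N-box CACNAG in 1 of 10 (36.7% of all). By gene, the GC box was in 5 of the 6 genes, the E-box in 4 and the N-box in 1. The shares of all windows are not per gene, windows of 1 gene are not independent, and these counts were not tested. The 3 sequences that lie wholly before the first exon are shown to set the GC-rich starts of both kinases beside that of Tmem255a, which holds no GC box. GC boxes are in capitals.
Nrk, chrX:138914180-138914429, plus strand: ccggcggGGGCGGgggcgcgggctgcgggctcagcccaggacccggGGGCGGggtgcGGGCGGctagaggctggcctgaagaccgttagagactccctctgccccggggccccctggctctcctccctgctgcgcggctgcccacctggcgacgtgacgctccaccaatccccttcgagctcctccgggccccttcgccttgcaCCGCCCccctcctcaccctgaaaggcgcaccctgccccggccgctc
Stk17b, chr1:53785225-53785465, minus strand: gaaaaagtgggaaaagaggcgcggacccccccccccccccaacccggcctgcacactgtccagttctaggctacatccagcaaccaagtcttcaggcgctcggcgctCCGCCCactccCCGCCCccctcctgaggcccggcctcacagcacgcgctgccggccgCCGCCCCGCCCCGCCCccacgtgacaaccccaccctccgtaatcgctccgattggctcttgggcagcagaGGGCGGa
Tmem255a, chrX:38252482-38252731, minus strand: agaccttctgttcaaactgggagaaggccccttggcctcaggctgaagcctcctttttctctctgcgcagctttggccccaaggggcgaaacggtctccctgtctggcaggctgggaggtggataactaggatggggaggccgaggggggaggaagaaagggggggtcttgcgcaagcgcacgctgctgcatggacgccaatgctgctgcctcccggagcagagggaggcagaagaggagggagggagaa
The Nrk stretch holds 4 GC boxes, the Stk17b stretch 6 and the Tmem255a stretch 0.

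Over the 10 libraries, the genes with the most similar profile were named by Pearson's r of log2 CPM among 15748 genes. These values rest on the difference between the tissues and on the fall in KO cerebellum that the choice used, the points come in pairs from the same mice, and they are a description. For Garnl3 and Plxdc1 the fall (-1.01 and -0.94) is at least as large as the tissue difference (0.93 and 0.75). Nrk was most like Kcng4 (r = 0.9990), Car8 (0.9987) and Atp2a3 (0.9984), and Cep76 most like Cerk (0.9989), Akain1 (0.9982) and Car8 (0.9971). Car8, a marker of Purkinje cells, is thus in both lists. Ptprr was most like Ddx49 (0.9966), Calb1 (0.9961) and Rgs8 (0.9958). Icmt followed Washc2 (0.9975), Creg1 (0.9951) and Inpp5e (0.9948), with Calb1 at place 6. Tmem255a followed Strn3 (0.9898), Itpr1 (0.9889) and Cyth3 (0.9885), with Calb1 at place 10. For Ptprr, Icmt and Tmem255a the reference gene was thus among the closest.

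Elsewhere Calb1 stood further down the order. Hes3 was most like B230206H07Rik (0.9967), Sh3bgr (0.9941) and Ppp4r3b (0.9937), with Calb1 at place 680, and Nrk had Calb1 at place 488. Stk17b was most like Hopxos (0.9945), Hopx (0.9929) and Washc2 (0.9922), with Calb1 at place 162. Hopx, used here as a marker of Bergmann glia, was itself called lower in KO cerebellum and had 29.3, 32.7 and 27.8 CPM in control and 32.3 and 42 CPM in KO cortices. Of its exonic bases, 27.2% are shared with other genes, and pairs in shared bases were counted for each gene. Whether Hopxos shares them was not examined, so Hopxos and Hopx may not be independent. Garnl3 and Plxdc1 were each other's nearest gene (r = 0.9826), ahead of Kcnip1 (0.9668) and 1500009C09Rik (0.9651) for Garnl3 and of Ppp1r16b (0.9608) and Opn3 (0.9604) for Plxdc1. Calb1 stood at places 238 and 319 for them, and Cep76 had it at place 112.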

How the data were processed

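RNA-Seq libraries were made from total RNA of bulk cerebellum and cortex. As the methods of the study and the file headers state, the authors removed adapters, mapped the paired reads to GRCm38 with STAR and deposited raw counts of read pairs per gene from featureCounts 2.0.1, 1 table per library, without normalization. The counting used no strand, although libraries were strand-specific, and gave a pair that overlapped several genes to each of them. Of 81881 entries, 55536 are mouse genes and were used, with symbols from GENCODE M21. The other 26345 entries (0.16 to 0.926% of the counts) entered neither library sizes nor tests.

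Groups followed the labels, and the 3 controls were pooled. The 9 genes, the lists of relatives and markers and the rules for naming genes were chosen with earlier results of these data known. The genes named are the 9, Calb1, Snx14, the called genes of each list of relatives with up to 2 more of the smallest p, the overlapping and nearest tested neighbors, and the 3 most similar profiles (mean of at least 1 CPM, at most 50% shared exonic bases). Comparisons of KO with control mice in each tissue, and of the control tissues with each other, used edgeR 4.0.16 (R 4.3.3) with its quasi-likelihood F test (filterByExpr, count minimum 10; TMM scaling; Benjamini-Hochberg adjustment over all genes tested). A gene was called at an adjusted p under 0.05 and an absolute log2 change over 0.5. The difference of the KO effect between the tissues was an interaction contrast over all libraries, called at an adjusted p under 0.05. Printed CPM carry TMM factors of all 10 libraries, and similarity used log2 CPM with a prior count of 2. DESeq2 1.42.0, other scalings, no filter, blocks and leaving out each library were alternatives. The 95% intervals use the SE and the degrees of freedom of the edgeR fit.

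Counts of replicates differed beyond sampling noise (chi-square per degree of freedom 4.41 to 31.7), and each library is a separate mouse or tissue. The labels pair the tissues by mouse. Deviations from the group means correlated between the tissues with r of 0.164 to 0.370 within mice and of -0.326 to 0.126 between different mice. The main fits of the tissue difference and of the interaction held no term for the mouse, so their SE ignore this pairing. The mouse enters only in the block. On simulated data, changes were placed in a small subset of genes with high mean counts. Of those changed by 1 on the log2 scale, 92.6% were recovered in the cerebellum comparison (19144 genes run) and 89.3% in cortex (18898 genes). The share was 93.4% between control tissues (19093 genes) and 60.0% for the difference of the KO effect between tissues (20054 genes). These shares do not cover genes with few counts, such as Nrk and Hes3 in cortex. They need not hold in cortex, where 0 of 19202 genes were called and Snx14, at a log2 change of -1.36, did not pass.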

Additional observations from a re-analysis of the deposited data

Results flagged for a closer look

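Stk17b had values of opposite sign in the 2 tissues, of which the cerebellum value is fixed by the choice of genes and the cortex value was not called. Its log2 change was -1.26 in cerebellum, where both KO libraries lay below all 3 controls, and 0.53 in cortex, where both lay above them. The difference between the tissues was not tested, because the gene was chosen for its cerebellum value, and the cortex value had an edgeR adjusted p of 0.796, with KO above all controls for 10.5% of all genes tested there. Over the alternatives the cortex value ranged from 0.33 to 0.70, with adjusted p-values of 0.114 to 0.999.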

How the results depend on the processing

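The median log2 change of the 9 genes in KO cerebellum was between -1.18 and -1.12 in all 10 alternatives. In cortex none of the 8 genes tested was called in any alternative; Hes3 was not tested without control 2, and Nrk was tested only without a filter and not called. Between control tissues all 9 were called in every alternative. With the other Purkinje cell markers as reference, the median log2 ratio of the 9 genes changed from 0.07 to -0.12, and without single libraries it was 0.06 to 0.11. Counts over all genes moved more. In cerebellum 842 genes were called without a filter and 181 with the replicate number as a block, and 133 to 400 without single libraries, fewest without control 1. In cortex DESeq2 called 49, the fit without a filter 380 and the block 3, and leaving out libraries gave 0 to 98, most without control 2. The tissue difference of the KO effect was called for 221 genes by DESeq2, 599 without a filter and 128 with the mouse as a block, and for 3 to 117 without single libraries. Of the relatives, 4 were called in cerebellum without a filter, 1 with the block and 1 to 3 without single libraries, and 2 in cortex without a filter. The called neighbor Rnf207 was lost with the block (0 called; 0 to 1 without single libraries). Dner had an adjusted p of 0.0557 with the block.

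Replicate numbers do not pair KO with control mice, since they name different animals: deviations of same-numbered libraries correlated with r of -0.035 to 0.114, so the block within a tissue is a check on the numbers only. With raw library totals the median over all genes between tissues moved from 0.02 to 0.13. The fit without a filter had infinite prior degrees of freedom in the KO comparisons, and its p-values are not reliable. Cortex depth limits Nrk and Hes3, with at most 3 and 13 counts per library. The causes of these shifts were not tested.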
